A study of Mus musculus with 10 samples.

Results

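Cholesterol synthesis was followed in bulk RNA-seq of mouse hippocampus through 7 genes, Hmgcs1, Idi1, Fdps, Fdft1, Sqle, Cyp51 and Insig1. They were taken by their symbols from the 56884 genes of the count table and read in all 10 libraries, each made from 1 mouse. All mice were ovary-intact females of the P301S line, also called PS19, in which the mouse Prnp promoter drives human Tau with the P301S mutation. At 6 months of age, 5 of them received a subcutaneous implant holding 10 mm of dihydrotestosterone (DHT), an androgen that aromatase cannot turn into estrogen, while 5 controls carried an implant with nothing in it (void). Hippocampi were taken after 12 weeks, at 9 to 9.5 months. Mice without the transgene were not analysed here, and mice shared cages only within their treatment, so cage and implant cannot be told apart.

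Cells build cholesterol from acetyl-CoA through mevalonate, farnesyl diphosphate, squalene and lanosterol. The brain makes nearly all of its own cholesterol, because plasma lipoproteins do not cross the blood-brain barrier, and in the adult most of it lies in myelin. The pathway is governed by sterol feedback: when sterols in the endoplasmic reticulum are low, SCAP carries the transcription factor SREBP2 to the Golgi, where proteases release its active part, and INSIG proteins hold SCAP back when sterols are high. Of the 7 genes, 6 encode enzymes of the pathway and Insig1 encodes one of these retention proteins, itself a target of SREBP.

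RefSeq promoter windows (GRCm38.p6) were at hand for 4 of the 7 genes, and the 250 bases before the start site are shown because these genes share a known regulator and are described together below. Capitals mark any match, on either strand, to the SREBP-type element TCACNCCAC, the CCAAT box, the GC box GGGCGG, the E-box CACGTG or a direct repeat of AGGTCA with 1 base between the copies. No window was used for Fdps, Fdft1 or Sqle.
Hmgcs1, chr13:119690101-119690350, plus strand: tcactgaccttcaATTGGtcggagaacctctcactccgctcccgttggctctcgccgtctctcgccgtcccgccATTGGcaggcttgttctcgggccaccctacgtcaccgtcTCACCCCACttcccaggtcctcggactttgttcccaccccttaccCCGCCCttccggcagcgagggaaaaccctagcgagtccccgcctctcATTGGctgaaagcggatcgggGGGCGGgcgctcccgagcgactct
Idi1, chr13:8885356-8885605, plus strand: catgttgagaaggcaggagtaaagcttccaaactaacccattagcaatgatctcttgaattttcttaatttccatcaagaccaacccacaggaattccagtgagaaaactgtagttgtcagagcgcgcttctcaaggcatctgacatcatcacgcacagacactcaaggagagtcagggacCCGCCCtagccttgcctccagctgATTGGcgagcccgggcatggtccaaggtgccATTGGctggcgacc
Cyp51, chr5:4104698-4104947, minus strand: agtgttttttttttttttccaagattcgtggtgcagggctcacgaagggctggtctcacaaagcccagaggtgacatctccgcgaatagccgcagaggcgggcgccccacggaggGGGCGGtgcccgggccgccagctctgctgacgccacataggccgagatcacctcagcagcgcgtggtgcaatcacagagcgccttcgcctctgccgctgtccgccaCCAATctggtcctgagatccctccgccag
Insig1, chr5:28071162-28071411, plus strand: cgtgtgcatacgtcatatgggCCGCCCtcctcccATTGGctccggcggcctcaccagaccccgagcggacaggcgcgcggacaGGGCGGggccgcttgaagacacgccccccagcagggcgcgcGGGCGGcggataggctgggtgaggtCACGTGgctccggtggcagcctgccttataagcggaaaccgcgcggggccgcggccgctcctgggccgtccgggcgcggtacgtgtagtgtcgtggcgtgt

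All 4 windows held a CCAAT box and a GC box, which were found in 33.8% and 32.7% of 32851 windows of the same length. Hmgcs1 had 3 CCAAT boxes and 2 GC boxes, Idi1 had 2 and 1, Cyp51 had 1 and 1, and Insig1 had 1 and 3. The SREBP-type element occurred in Hmgcs1 alone among the 4, as TCACCCCAC starting 137 bases before the start site, against 1.05% of all windows. The E-box occurred in Insig1 alone, starting 101 bases before the start site, against 6.02% of all windows. The direct repeat, a half-site spacing bound by several nuclear receptors, was in 0 of the 4 windows and in 0.0335% of all windows. None of these matches overlapped another. Only these exact patterns were searched, so the windows of Idi1, Cyp51 and Insig1 may still hold SREBP-type elements with other letters. A match describes the letters of the window and was not tested as a binding site.

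Total counts per library ranged from 27188854 to 47113661, and the 7 genes had between 280 and 13537 counts in a library. Levels are given as CPM, a gene's count scaled to library size, after TMM scaling of the libraries. DHT replicate 1 was the lowest of the 10 mice for 6 of the 7 genes, and the log2 fold changes of the 7 genes are also given without it. The same mouse had the highest microglial, choroid plexus and astrocyte marker means and the lowest neuron marker mean of the 10. The S numbers in the library names of all void mice precede those of all DHT mice, and what these numbers stand for is not stated, so their order and the implant cannot be told apart.

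With DHT, all 7 cholesterol genes had lower mean levels, by 0.12 to 0.26 on the log2 scale, but none passed the test across all genes. Calls were made at an adjusted p under 0.05 in the quasi-likelihood test of edgeR, which called 0 of the 7 genes in either direction. Over the 17622 genes tested it called 5.48%, of which 5.22% of all genes were higher, 2.17% higher by more than 1 on the log2 scale, and 0.261% lower. At an unadjusted p under 0.05, 2 of the 7 were lower, Hmgcs1 and Fdft1, and 0 were higher, against 4.22% lower and 13.1% higher (17.4% in all) over the table. DESeq2 called 1 of the 7, Hmgcs1, lower, and it called 226 of 20716 genes lower in all. Of the 7, limma voom called 0. The median log2 fold change of the 7 genes was -0.18, against 0.01 for all genes tested, where 47.6% of values were negative and 52.4% positive. The groups overlapped for each of the 7 genes, whereas 0.88% of all genes were lower in every DHT mouse than in every void mouse. Without DHT replicate 1, 0 of the 7 were called, the median was -0.12, and the log2 fold changes were -0.23 for Hmgcs1, -0.29 for Idi1, -0.11 for Fdps, -0.17 for Fdft1, -0.11 for Sqle, -0.12 for Cyp51 and -0.11 for Insig1. Without DHT replicate 3 the median was -0.27. In bulk tissue, fewer cells of a type and less RNA per cell cannot be told apart.

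**Figure D1:**
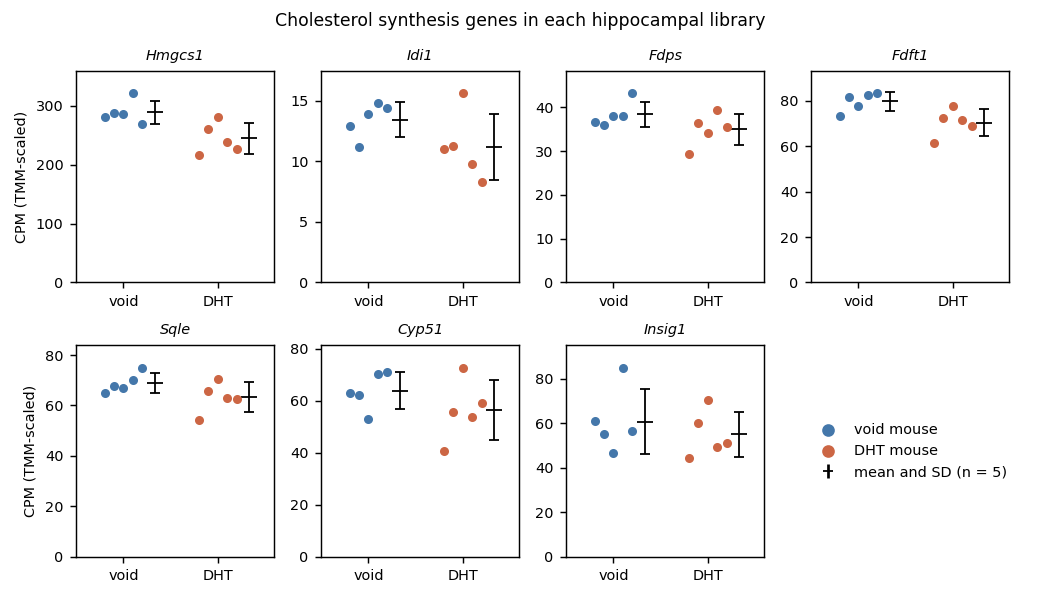
Levels of the 7 genes in each library, in CPM after TMM scaling, with void mice in blue and DHT mice in orange. Bars give the mean and SD over 5 mice. The DHT means lie below the void means in every panel, and the points of the groups overlap in every panel.

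Hmgcs1 (ENSMUSG00000093930), the cytosolic HMG-CoA synthase of an early step of the pathway, had the highest level of the 7. It was at 286, 322, 269, 282 and 288 CPM in void replicates 4, 5, 9, 10 and 11, and at 217, 261, 282, 239 and 226 CPM in DHT replicates 1, 2, 3, 5 and 6. Of the DHT mice, 4 lay below the lowest void mouse, while DHT replicate 3 lay within the void range. The means were 289 ± 19.5 and 245 ± 26.5 CPM (SD, n = 5 each), which is a log2 difference of -0.24 ± 0.08 (SE, 95% confidence interval -0.41 to -0.07). This did not pass in edgeR (adjusted p 0.106), and a two-sided exact permutation test of this gene alone gave p = 0.0238. The call depended on the tool and on single mice, since the adjusted p was 0.0292 with DESeq2 and 0.0417 in edgeR without DHT replicate 3. The log2 difference was -0.11, -0.19 and -0.24 with choroid plexus, oligodendrocyte and neuron markers as a covariate.

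Idi1 (ENSMUSG00000058258) encodes the isomerase that interconverts the 5-carbon isoprene units. It was the least abundant of the 7, with 11.2 to 14.8 CPM and a median of 13.9 in void mice and 8.34 to 15.6 CPM with a median of 11.04 in DHT mice. DHT replicate 3 had the highest value of all 10 mice and DHT replicate 6 the lowest. DHT and void differed by -0.26 ± 0.15 on the log2 scale (SE, 95% confidence interval -0.59 to 0.07, edgeR adjusted p 0.428). Idi1 was at -0.43 without DHT replicate 3 (edgeR adjusted p 0.0702) and at -0.17 without DHT replicate 6. With a marker covariate it was at -0.38 for choroid plexus, -0.27 for oligodendrocytes and -0.53 for neurons.

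Fdps (ENSMUSG00000059743) makes farnesyl diphosphate, the last intermediate shared with protein prenylation, ubiquinone and dolichol. Its level was 36.0 to 43.2 CPM in void mice and 29.5 to 39.3 CPM in DHT mice, and 3 DHT mice lay below every void mouse. The log2 difference of -0.13 ± 0.08 (SE) had a 95% confidence interval of -0.31 to 0.04 (edgeR adjusted p 0.458). Fdps was at -0.09 without void replicate 9 and at -0.22 without DHT replicate 5. Marker covariates gave -0.22 for choroid plexus, -0.16 for oligodendrocytes and -0.00917 for neurons.

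Fdft1 (ENSMUSG00000021273), the squalene synthase that commits farnesyl diphosphate to sterols, was at 77.9, 82.4, 83.3, 73.5 and 81.6 CPM in void replicates 4, 5, 9, 10 and 11. In DHT replicates 1, 2, 3, 5 and 6 it was at 61.3, 72.4, 77.7, 71.7 and 68.8 CPM. As for Hmgcs1, 4 of the DHT mice lay below the lowest void mouse, and all 5 lay below the void mean. In edgeR it differed by -0.18 ± 0.07 on the log2 scale (SE, 95% confidence interval -0.33 to -0.03, adjusted p 0.170). The exact permutation p of the gene alone was 0.0159 (two-sided). Fdft1 was at -0.15, -0.13 and -0.14 with choroid plexus, oligodendrocyte and neuron markers as a covariate.

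Sqle (ENSMUSG00000022351) encodes squalene epoxidase, which adds the first oxygen of the sterol skeleton. It was at 67.0, 69.98, 75.0, 64.9 and 67.8 CPM in void replicates 4, 5, 9, 10 and 11 and at 54.1, 65.9, 70.4, 63.1 and 62.6 CPM in DHT replicates 1, 2, 3, 5 and 6. DHT replicate 1 was the lowest, and 3 DHT mice lay below every void mouse. Its log2 difference was -0.12 ± 0.07 (SE, 95% confidence interval -0.28 to 0.03, edgeR adjusted p 0.426), and -0.19 without DHT replicate 3. With choroid plexus, oligodendrocyte and neuron markers as a covariate Sqle was at -0.15, -0.11 and -0.08.

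Cyp51 (ENSMUSG00000001467), the lanosterol demethylase and the latest step among the 6 enzymes, ranged from 53.1 to 71.1 CPM in void mice and from 40.7 to 72.8 CPM in DHT mice. The highest and the lowest of the 10 values were both DHT mice, replicates 3 and 1. The groups differed by -0.18 ± 0.13 on the log2 scale (SE, 95% confidence interval -0.47 to 0.11, edgeR adjusted p 0.567). Cyp51 was at -0.12 without DHT replicate 1 and at -0.31 without DHT replicate 3. Its value with a marker covariate was -0.12 for choroid plexus, -0.18 for oligodendrocytes and -0.07 for neurons.

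Insig1 (ENSMUSG00000045294) was at 46.6, 85.0, 56.4, 60.8 and 55.0 CPM in void replicates 4, 5, 9, 10 and 11 and at 44.5, 59.9, 70.4, 49.2 and 51.1 CPM in DHT replicates 1, 2, 3, 5 and 6. Void replicate 5 was the highest of the 10, and only DHT replicate 1 lay below every void mouse. At -0.14 ± 0.16 (SE, 95% confidence interval -0.49 to 0.21, edgeR adjusted p 0.735), the log2 difference was smaller than its error. It was 0.01 without void replicate 5, -0.22 without void replicate 4 and -0.27 without DHT replicate 3. Marker covariates gave 0.18 for choroid plexus, -0.115 for oligodendrocytes and -0.06 for neurons.

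Per kilobase of annotated exon in GENCODE M21, Hmgcs1 stood far above the others in void mice, at 63.0 ± 4.25 CPM per kilobase (SD, n = 5). Insig1 and Fdft1 followed at 19.7 ± 4.69 and 18.9 ± 0.960, and their ranges overlapped. Cyp51 at 14.5 ± 1.64 and Sqle at 12.4 ± 0.692 also overlapped. Fdps was at 9.12 ± 0.677 and Idi1 was lowest at 3.84 ± 0.406, each apart from its neighbours in all 5 void mice. The order depends on exon lengths that combine all annotated transcripts.

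The 7 genes tended to be high or low in the same mice. Across the 10 mice, all 21 pairs of genes had a positive Pearson r of log2 CPM, from 0.219 to 0.945 with a median of 0.698. After Benjamini-Hochberg adjustment over the 21 pairs, 11 passed in a permutation test of Pearson r and 4 in one of Spearman rho. Pairs of other genes were not counted, so whether these counts are particular to the 7 genes was not tested. The closest pair was Fdft1 and Sqle, which encode consecutive steps, with r = 0.945 (permutation test, adjusted p = 0.00105) and rho = 0.915 (permutation test, adjusted p = 0.00966). Its r was 0.873 without the 2 mice farthest from the median of Fdft1. Sqle and Cyp51 had r = 0.899 (permutation test, adjusted p = 0.0084), rho = 0.770 (permutation test, adjusted p = 0.0518) and r = 0.703 without such mice.

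Some relations of Fdps rested on few mice: without the 2 mice farthest from the median, its r with Sqle was -0.289 and with Cyp51 -0.547. Over all 21 pairs the median r without them was 0.519. With the mean of each group removed, the median r was 0.604, but only Fdft1 and Sqle passed, with r = 0.946 (permutation test within groups, adjusted p = 0.00168). The genes of one library share its depth and its tissue piece, so the pairs are not independent of each other.

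By mouse, DHT replicate 1 was the lowest for every gene except Idi1, and DHT replicate 6 was among the lowest 2 mice for 4 genes. DHT replicate 3 was unlike both and was among the highest 2 mice for 4 genes, Idi1, Sqle, Cyp51 and Insig1. Void replicates 5 and 9 were each among the highest 2 for 4 genes.

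**Figure D2:**
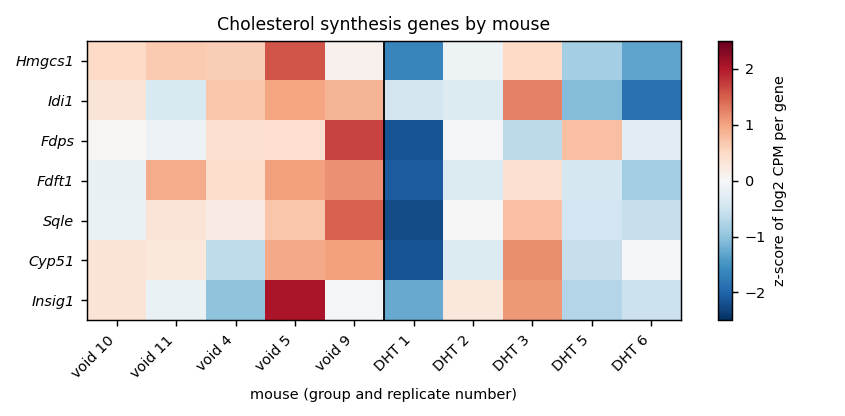
Heat map of the 7 genes (rows) in the 10 mice (columns), coloured by the z-score of log2 CPM within each gene. DHT replicate 1 is blue in every row and DHT replicate 3 is red in every row but Fdps, while void replicate 5 is red in every row.

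Markers of several cell types also differed between the groups. Of 8 microglial markers, 5 were called higher with DHT, and their summed level was 419 to 490 CPM in void mice and 592 to 870 CPM in DHT mice. Choroid plexus markers had a positive log2 fold change for all 12 genes, 4 of them called, with a summed level of 360 to 3273 CPM in void mice and 3911 to 5744 CPM in DHT mice. Of 8 astrocyte markers, 1 was called higher, Gfap. None of the 10 oligodendrocyte, 8 neuron or 6 endothelial markers was called. Of the oligodendrocyte markers, 9 had a positive and 1 a negative log2 fold change, with a median of 0.17. Their summed level was 3373 to 4644 CPM in void mice and 4185 to 4452 CPM in DHT mice. Neuron markers all had negative log2 fold changes, with a median of -0.10. Their summed level was 6788 to 7592 CPM in void mice and 5931 to 6736 CPM in DHT mice, without overlap. The groups did overlap for each of the 8 neuron markers alone. They also overlapped for the neuron marker mean of log2 CPM, at 9.21 to 9.32 in void and 9.01 to 9.26 in DHT mice. Of 5 red blood cell markers, 1 had enough counts to be tested, at a log2 fold change of -0.04. With a marker mean as a covariate, the median log2 fold change of the 7 genes was -0.15 for choroid plexus, -0.16 for oligodendrocyte and -0.08 for neuron markers, against -0.18 without. In these fits 6, 7 and 7 of the 7 genes had a negative value, and 0, 0 and 2 had an unadjusted p under 0.05. Over the 17622 genes tested, 1227, 1967 and 3349 had an unadjusted p under 0.05 in the same fits. The choroid plexus marker mean of log2 CPM did not overlap between the groups, at 2.21 to 6.23 in void and 6.56 to 7.30 in DHT mice. That fit therefore separates this covariate from the implant poorly. No fit used microglial or astrocyte markers. The part of any of the cell types in the levels of the 7 genes was not tested.

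Among 13 other enzymes of cholesterol synthesis, 10 had a negative and 3 a positive log2 fold change, with a median of -0.04. None of the 13 was called by edgeR, by DESeq2 or by limma voom. In edgeR 2 of them, Tm7sf2 and Sc5d, had an unadjusted p under 0.05, against 17.4% of all genes tested. Tm7sf2, a sterol C14 reductase, had the lowest p of the list, at 8.02 ± 1.19 CPM in void and 6.29 ± 1.17 CPM in DHT mice (SD, n = 5 per group). Its log2 difference was -0.35 ± 0.14 (SE, edgeR adjusted p 0.225). Lss, which closes the lanosterol rings, was at -0.03 ± 0.07 and Dhcr7, which acts late in the pathway, at -0.05 ± 0.11 (SE, edgeR adjusted p 0.884 and 0.882). Ebp, with 0.07, had the lowest p among the 3 positive genes.

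**Figure D3:**
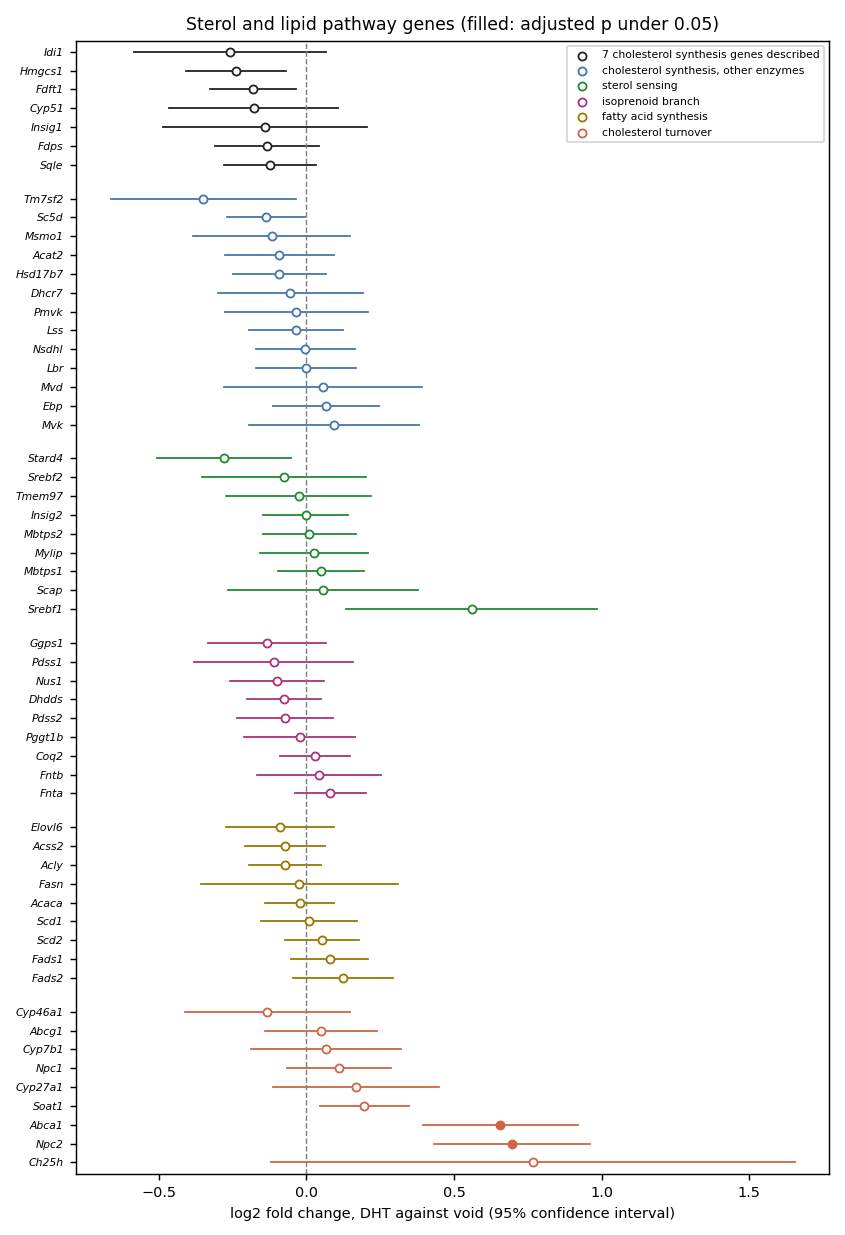
Log2 fold change of DHT against void with its 95% confidence interval for the 7 genes and for related lists, 1 gene per line. Filled points passed an adjusted p under 0.05, and these are Abca1 and Npc2, both above 0. The 7 genes at the top all lie below 0.

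Of 9 genes of sterol sensing, 0 were called in either direction by edgeR, DESeq2 or limma voom. In edgeR 2 of them, Srebf1 and Stard4, had an unadjusted p under 0.05, against 17.4% of all genes tested. The median log2 fold change of the 9 was 0.01, with 5 positive and 4 negative values. Srebf2, which encodes SREBP2, had a log2 fold change of -0.08 (95% confidence interval -0.35 to 0.20) and Insig2, the relative of Insig1, one of -0.00233 (95% confidence interval -0.15 to 0.14). Stard4, a sterol transfer protein and SREBP2 target, was at 36.2 ± 3.72 and 29.8 ± 4.32 CPM (SD, n = 5 per group), with a log2 difference of -0.28 ± 0.10 (SE, edgeR adjusted p 0.168). Srebf1, which encodes SREBP1 and was chosen after its values were seen, differed by 0.56 ± 0.20 (SE, edgeR adjusted p 0.137). Srebf1 was called without void replicate 9 (0.71, edgeR adjusted p = 0.0416). This mouse had the highest Srebf1 level of the void mice, 63.9 CPM against 35.5 to 50.5 CPM in the others. It also had the highest choroid plexus markers of the void mice, and their part in the Srebf1 level was not tested. Over 9 other settings of tool, scaling, filter or marker covariate, Srebf1 ranged from 0.25 to 0.81 on the log2 scale. It was called in 0 of them.

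The branches that use the same precursors gave no call in either direction with edgeR, DESeq2 or limma voom. In edgeR 0 of their genes had an unadjusted p under 0.05, against 17.4% of all genes tested. The 9 isoprenoid genes had a median log2 fold change of -0.07, with the lowest p for Ggps1, which makes geranylgeranyl diphosphate (-0.14), and for the prenyltransferase subunit Fnta (0.08). The 9 fatty acid genes had a median of -0.02. Acly, which supplies cytosolic acetyl-CoA, was at -0.07, fatty acid synthase Fasn at -0.02 with a 95% confidence interval of -0.36 to 0.31, the desaturase Scd2 at 0.05 and Fads2 at 0.12.

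Genes that move, store or remove cholesterol were mostly higher in mean with DHT. Of 9 tested, 2 were called higher, 0 were called lower and 8 had a positive log2 fold change, with a median of 0.17. Over all genes tested, 5.22% were called higher, 0.261% were called lower and 52.4% had a positive value. The largest of the 8 positive values, 0.77, was that of a gene with only 5 to 34 counts in a library and was not called. Abca1 (ENSMUSG00000015243), which exports cholesterol to apolipoproteins, was at 91.1, 86.5, 79.9, 88.4 and 80.6 CPM in void replicates 4, 5, 9, 10 and 11 and at 188, 119.6, 127, 118 and 119 CPM in DHT replicates 1, 2, 3, 5 and 6. The groups did not overlap, a separation in this direction found for 5.39% of all genes, and DHT replicate 1, the lowest mouse for 6 of the 7 synthesis genes, was the highest for Abca1 and also for the microglial, choroid plexus and astrocyte marker means. The part of these cell types in either extreme was not tested. Abca1 rose by 0.66 ± 0.12 on the log2 scale (SE, edgeR adjusted p 0.0115), and by 0.47 (adjusted p 0.0127) without DHT replicate 1. It remained called with each mouse left out, with the highest adjusted p, 0.0499, without void replicate 11.

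Npc2 (ENSMUSG00000021242), which hands cholesterol out of the lysosome and is abundant in phagocytes, rose from 47.4 ± 7.48 to 76.8 ± 11.4 CPM (SD, n = 5 per group), without overlap between the groups. The rise was 0.70 ± 0.12 on the log2 scale (SE, edgeR adjusted p 0.00990). Soat1, which esterifies cholesterol for storage and was chosen after its values were seen, was higher in all 5 DHT mice than in all 5 void mice, at 58.1 to 74.0 against 53.7 to 57.1 CPM. It did not pass the test across all genes, at 0.20 ± 0.07 on the log2 scale (SE, edgeR adjusted p 0.146). Cyp46a1, the neuronal 24-hydroxylase that clears cholesterol from the brain, was at -0.13 (95% confidence interval -0.41 to 0.15). Microglial and choroid plexus markers were higher in the same mice, as given above. With choroid plexus, oligodendrocyte and neuron markers as a covariate the log2 fold change was 0.56, 0.63 and 0.38 for Abca1 and 0.37, 0.57 and 0.54 for Npc2. Neither was called in these 3 fits, and nor was any gene of the whole table.

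**Figure D4:**
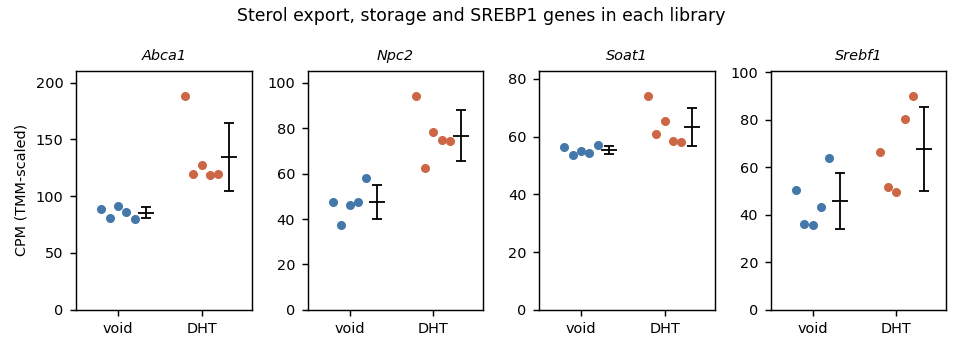
Levels of 4 sterol handling genes in each library, in CPM after TMM scaling, drawn as for the 7 synthesis genes with the mean and SD over 5 mice. The groups do not overlap for Abca1, Npc2 and Soat1, and they overlap for Srebf1.

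The genes most like the 7 in their pattern over the 10 libraries were ranked among 14829 other genes by Pearson r with the mean z-score of the 7. Among the 5 highest were Hdac9 (0.969), Tada2a (0.952), Acat2 (0.950) and Col23a1 (0.915), of which Acat2, the thiolase of the first step, is an enzyme of the pathway. With group means removed, r was 0.986 for Acat2. Stard4 was at rank 18 (r = 0.875). Srebf2 was at rank 5649 (r = 0.116) and Abca1 was near the other end at rank 14771 (r = -0.792). These r values rest on 10 libraries and are a description.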

How the data were processed

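mRNA libraries of 10 hippocampi were sequenced as paired-end reads. The authors trimmed and filtered reads with HTStream, aligned them with STAR 2.7.10b and deposited the raw count of each gene, not normalized. The paper's methods name mm10 as the genome and the submitters' processing notes name mm39, and the annotation release, strand setting and handling of reads shared between genes are not given in the sources used here. No gene coordinates are therefore given, and promoter windows are RefSeq's own on GRCm38.p6. GENCODE M21 gave a symbol for 51948 of 56884 gene identifiers.

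Groups came from the sample titles. edgeR 4.0.16 was run in R 4.3.3 (TMM, filter by expression, quasi-likelihood test, Benjamini-Hochberg over the 17622 genes tested, calls at an adjusted p under 0.05). The standard error (SE) was taken as the size of the log2 difference over the square root of F. Log2 CPM used a prior count of 2. Permutation tests of single genes ran through all 252 splits (smallest p 0.00794), and correlations used 100000 resamples. Other settings were DESeq2 1.42.0, limma 3.58.1 voom, other scalings and filters (down to 1 count, or 10 in every library), a log2 fold change limit of 1, marker covariates and each mouse left out. The count tests were checked on simulated data.

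Named were the 7 genes, preset key genes of each list, every called gene, the gene of lowest p per direction and the 5 most similar genes. Members and lists were chosen with earlier results of these data known. Some genes of the lists are not reported here and were left out of the list counts.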

Additional observations from a re-analysis of the deposited data

Results flagged for a closer look

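Single mice were examined in 52 groups of 5, the void and the DHT mice for each of 26 genes, and 1 stood apart because the extreme mouse was separated from its neighbour by over 0.71 of the group's range, where chance gives about 2.6. For Abca1, DHT replicate 1 was the highest of the DHT mice, at 188 CPM, with a gap of 0.875 of the range. None of the 14 groups of the 7 synthesis genes stood apart by this rule. The nearest was Fdps in void mice, where void replicate 9 was the highest with a gap of 0.708 of the range.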

How the results depend on the processing

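No paired analysis was possible because 5 is the sole replicate number found in both groups. The 7 synthesis genes kept a negative log2 fold change under every setting except Insig1, which was 0.18 with choroid plexus markers as a covariate and 0.0101 without void replicate 5. Hmgcs1 passed with DESeq2 (-0.27), which called 1 of the 7 genes lower, and without DHT replicate 3. With each mouse left out, between 0 and 1 of the 7 were called lower, and the log2 fold changes ranged from -0.32 to -0.20 for Hmgcs1 and from -0.27 to 0.0101 for Insig1. Over all genes the 920 higher and 46 lower calls became 0 and 0 with any of the 3 marker covariates, 382 and 4 with a fold limit, and 226 lower with DESeq2. They ranged from 351 to 1072 and from 5 to 77 with each mouse left out: the higher count was 552, 351 and 493 without void replicates 10, 11 and 4 and 395 and 518 without DHT replicates 1 and 3, and the lower count was 11, 5, 9, 13, 20, 77 and 29 without void 10, 11 and 4 and DHT 1, 3, 2 and 6. The cause was not tested. The calls of Abca1 and Npc2 were lost, leaving 0 in their list, with each marker covariate and with the fold limit. The sterol sensing list had 0 to 1 calls with a mouse left out, the 1 being Srebf1 without void replicate 9. Unadjusted p was under 0.05 for 1227 genes with the choroid plexus, 1967 with the oligodendrocyte and 3349 with the neuron covariate, against 3059 without. Pairs past the threshold fell from 11 to 1 with group means removed. Without length scaling, Fdft1 ranked 2, Sqle 3 and Insig1 5 by level.

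Of 418 values for 22 named genes under 19 settings, 22 reversed, 6 were weaker and 1 stronger. The reversed values were, with neuron markers, Lss 0.0117, Dhcr7 0.13, Srebf2 0.16, Fasn 0.18 and Cyp46a1 0.17, with choroid plexus markers, Ebp -0.0676 and Ggps1 0.0579, and with oligodendrocyte markers, Insig2 0.0234 and Ebp -0.0475. Insig2 was 0.00852 with library size alone and 0.000597 with at least 10 counts. With a mouse left out, values ranged from -0.095 to 0.0127 for Lss, -0.143 to 0.0228 for Dhcr7, -0.187 to 0.000554 for Srebf2, -0.0523 to 0.029 for Insig2, -0.147 to 0.073 for Fasn, -3.21e-05 to 0.0732 for Scd2 and -0.00459 to 0.105 for Ebp.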
